A study of Mus musculus with 28 samples.

Results

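The genes described here are 33 chaperones, folding enzymes and unfolded protein response genes of the mouse endoplasmic reticulum (ER), out of 55291 genes in each of the 3 expression tables. They were taken by gene symbol, and all 33 are present in every table. By role they comprise 4 genes of stress sensing (Atf6, Ern1, Eif2ak3 and Xbp1) and 7 lumenal Hsp70 and Hsp90 chaperones with their partners (Hspa5, Hsp90b1, Hyou1, Dnajb9, Dnajb11, Dnajc3 and Sdf2l1). A further 6 are lectin chaperones and disulphide isomerases (Calr, Canx, Pdia3, Pdia4, Pdia6 and P4hb), and 3 are secreted or calcium-related factors (Creld2, Manf and Wfs1). The remainder are 7 genes of ER-associated degradation (Herpud1, Edem1, Sel1l, Syvn1, Derl1, Derl2 and Derl3) and 6 of protein entry and N-glycosylation (Sec61a1, Sec61b, Ssr1, Ssr2, Spcs1 and Ddost). The test could be run on 32 of them in every table. Derl3, a derlin, passed the minimum level in none: it had 0, 0 and 0 normalized counts in the BAY-876 libraries and 2.88, 0 and 0 in the vehicle libraries at 36 h, and at most 1.86 TPM (a length-scaled transcript level that sums to 1000000 in each library) in any library of the 32 h table.

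The ER folds and glycosylates membrane and secreted proteins. When unfolded proteins accumulate there, the chaperone BiP (Hspa5) is drawn away from 3 membrane sensors. IRE1 (Ern1) then splices the Xbp1 mRNA into a form that encodes an active transcription factor. ATF6 (Atf6) is cut in the Golgi and releases another, and PERK (Eif2ak3) phosphorylates eIF2α, which slows translation and favours that of Atf4. XBP1 and ATF6 are known for raising chaperone, degradation and translocon genes, and ATF4 for raising amino acid and stress genes such as Ddit3 and Chac1. N-glycans are built from glucose-derived sugars, and loss of glucose is a classical trigger of this response, from which the glucose-regulated proteins take their name.

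The study sequenced mRNA from LLC cells, a mouse Lewis lung carcinoma line, and from cells sorted out of tumours, over 28 libraries in 8 groups. In the 36 h experiment LLC cells received 200 nM BAY-876, an inhibitor of the glucose transporter GLUT1 (Slc2a1), or vehicle, with 3 libraries each. In the 32 h experiment, with 3 libraries a group, a 24 h pretreatment with or without 200 nM BAY-876 preceded 32 h with or without 20 ng/ml of the inflammatory cytokine TNF. Its groups are BAY-876 with TNF (called combination cells here), TNF, BAY-876 and control, and the labels do not say whether the inhibitor stayed on during the 32 h. The 36 h and 32 h BAY-876 cells were therefore treated on different schedules and have their own controls, which carry the treatment label vehicle in both; all cultured cells have the genotype label WT. On day 16, 5 OT1 libraries and 5 tumour libraries were sorted from LLC-OVA-NGFR tumours grown under the skin of Rag1 ko mice, which lack their own T and B cells, after activated OT1 T cells had been injected on day 9. OT1 T cells carry a receptor for an ovalbumin peptide; their libraries have the genotype label OT1 and those of the tumour cells WT, and all come from mice that received the transfer. The labels of combination replicates 2 and 3 name BAY-877 and BAY-878, and these libraries were placed in the combination group by their titles. No label says that the replicates are separate cultures or mice, so a p-value here measures the spread between these libraries, which may be technical.

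ATF6 and XBP1 are known to act through short promoter elements, and those found in these genes are shown. The genes were listed as ER chaperone and unfolded protein response genes, which these factors are known to raise. How often they hold the elements is therefore a description and no independent support. RefSeq promoter windows of the GRCm38.p6 assembly, 250 bases before to 50 bases after the gene start, were held for 27 of the 33 genes, and not for Atf6, Hyou1, Manf, Derl1, Sec61a1 or Ssr2. The ER stress response element (ERSE), searched on both strands as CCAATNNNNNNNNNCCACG, was found in 9 of 27 windows (33.33%), against 37 of all 27025 genes with a window (0.137%). ERSE-II, searched as ATTGGNCCACG, was found in 2 of 27 (7.407%), against 12 of 27025 (0.0444%). None of the 27 held the core TGACGTGG of the unfolded protein response element, which 193 of 27025 held (0.714%), and the composite element read by ATF4, searched as TGATGNAA, was in Herpud1 alone (3.704% against 4.51%). All 4 searches were made on both strands, the letters CCACG are shared by ERSE, ERSE-II and the reverse complement of the core, and a match is a description of letters, not a bound site. The elements are written 5′ to 3′ on the strand that carries them, with the fixed letters in capitals.
Hspa5: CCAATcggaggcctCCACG
Hsp90b1, far element: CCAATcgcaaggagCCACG
Hsp90b1, near element: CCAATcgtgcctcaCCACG
Dnajc3: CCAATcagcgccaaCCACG
Calr: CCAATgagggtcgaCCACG
Canx: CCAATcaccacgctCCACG
Pdia6: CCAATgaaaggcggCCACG
Creld2: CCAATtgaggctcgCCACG
Syvn1: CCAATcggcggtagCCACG
Derl3: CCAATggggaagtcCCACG
Dnajb11, ERSE-II: ATTGGcCCACG
Herpud1, ERSE-II: ATTGGgCCACG

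Counted from the gene start, the Hspa5 element (chromosome 2) lies at −65 to −47 and the Pdia6 element (chromosome 12) at −98 to −80. Hsp90b1 (chromosome 10) is the only member with a pair of ERSE matches, at −212 to −194 and −107 to −89. The Dnajb11 ERSE-II lies after the gene start, at 8 to 18. Herpud1, which was called higher with BAY-876 at both 36 h and 32 h, has its ERSE-II at −52 to −42 and the ATF4-type element at −112 to −105 in the same promoter. The 250 bases before the start are shown for Herpud1, with both elements in capitals, and for Dnajc3, a BiP co-chaperone with a standard ERSE. The Herpud1 stretch is chr8:94386179-94386428 on the plus strand, upstream of the gene, and the Dnajc3 stretch is chr14:118937682-118937931, also plus strand and upstream of the gene.
Herpud1: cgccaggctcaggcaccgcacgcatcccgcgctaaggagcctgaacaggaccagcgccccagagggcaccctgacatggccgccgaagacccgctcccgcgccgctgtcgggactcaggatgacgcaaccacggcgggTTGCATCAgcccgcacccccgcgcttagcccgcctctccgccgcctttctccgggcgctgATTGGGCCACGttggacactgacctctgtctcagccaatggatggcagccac
Dnajc3: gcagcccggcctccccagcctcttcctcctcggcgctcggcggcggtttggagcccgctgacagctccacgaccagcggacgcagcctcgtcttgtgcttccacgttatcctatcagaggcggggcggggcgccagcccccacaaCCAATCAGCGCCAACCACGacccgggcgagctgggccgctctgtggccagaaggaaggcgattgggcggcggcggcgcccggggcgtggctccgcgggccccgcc

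Values at 36 h are gene counts normalized by the authors' size factors, and those at 32 h and day 16 are TPM. Totals at 36 h lay between 16847994 and 17134536 normalized counts, and the depth behind the TPM values is unknown. Log values of libraries of the same group correlated at 0.984 to 0.989 at 36 h, at 0.985 to 0.989 at 32 h and at 0.914 to 0.989 on day 16. The inhibitor left a mark in each culture: Txnip, a glucose-responsive gene, averaged 21.2 ± 7.53 normalized counts in BAY-876 cells and 1332 ± 56.5 in vehicle cells at 36 h, and 0.491 ± 0.177 TPM in BAY-876 cells and 43.5 ± 0.684 TPM in control cells at 32 h (SD, n = 3 each). Nfkbia, an NF-κB target, averaged 335 ± 12 TPM in TNF cells and 43.7 ± 5.41 TPM in control cells (SD, n = 3 each). In the 32 h cultures the T cell genes Cd3d and Cd3e and the myeloid genes Itgam and Adgre1 were at 0 in all 12 libraries, Epcam was at 0 and Krt8 was present.

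BAY-876 for 36 h raised 11 of the 32 genes tested and lowered none. The largest difference was in Herpud1, followed by Xbp1, Dnajb9 and Calr. All 11 had every BAY-876 library above every vehicle library, but they were picked by a test on these same libraries. The separation is therefore no added support, and its share over all genes was not counted. The fold changes were moderate, from 0.17 to 0.72 on the log2 scale of normalized counts plus 1. The test was limma's moderated comparison over all 12937 genes past the minimum, with adjusted p under 0.05 as the threshold (Benjamini-Hochberg over all genes). Among all of these genes 7.34% were called higher and 7.1% lower. The median log2 fold change was 0.082 for the 32 genes and −0.0012 for all genes. The count is sensitive to the vehicle libraries: it was 5 without vehicle replicate 1, 6 without replicate 2 and 5 without replicate 3, while Herpud1, Xbp1, Calr and P4hb were called in all 12 alternative fits.

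**Figure D1:**
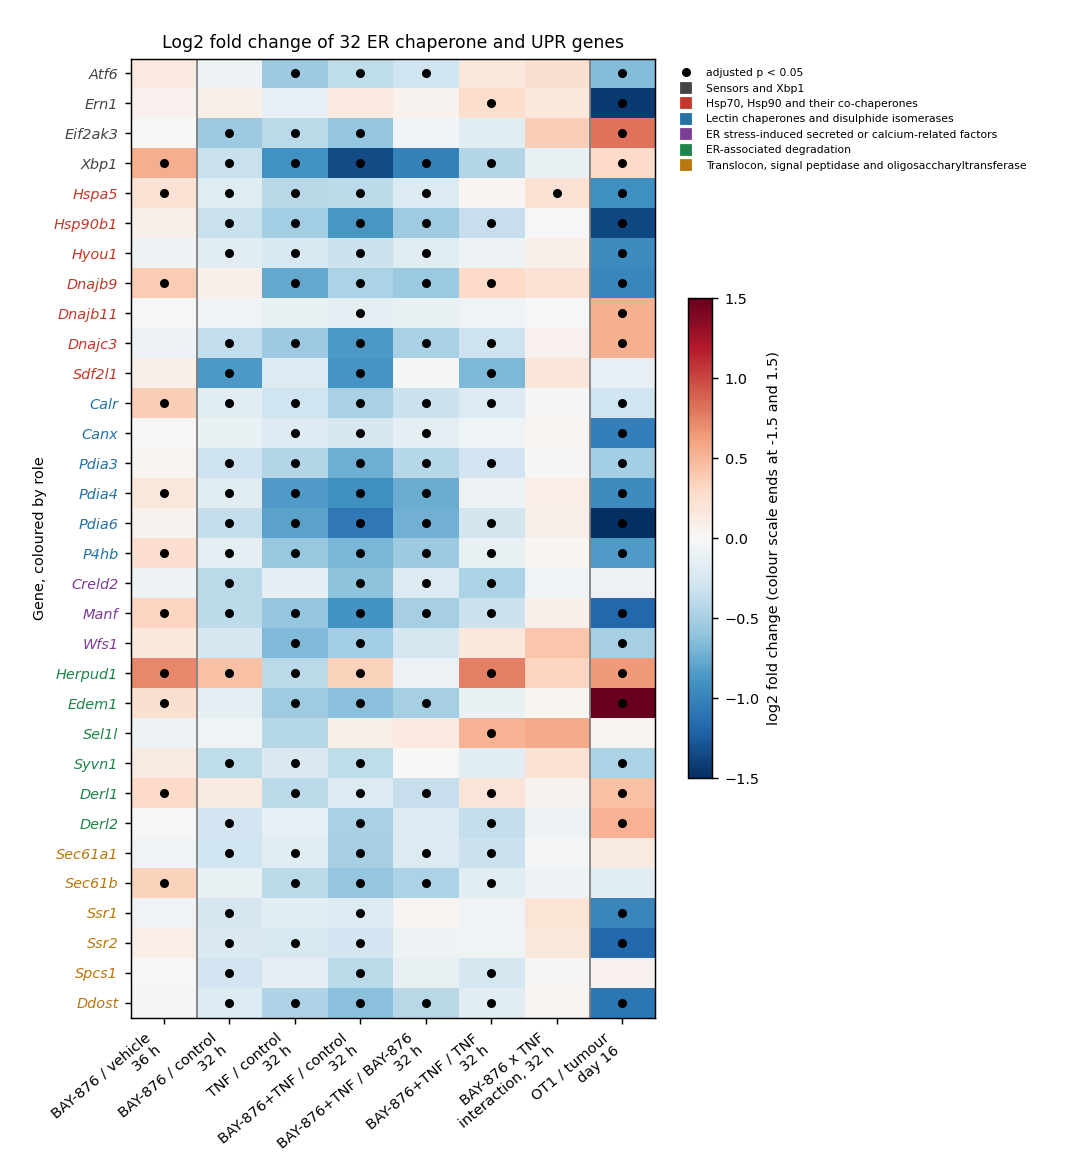
Log2 fold changes of the 32 genes tested (rows, grouped by role) in the 8 comparisons (columns), without Derl3. Colour gives the log2 fold change, red higher and blue lower in the group named first, and a dot marks an adjusted p under 0.05; the 36 h column is mostly pale red with 11 dots, while the 5 columns that compare 32 h groups are mostly blue and the interaction column is mostly red.

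Of the sensing genes, Xbp1 alone was called at 36 h (1 higher of 4). Xbp1 had 1393, 1289 and 1411 normalized counts in BAY-876 cells, against 951, 952 and 904 in vehicle cells (log2 fold change 0.54, SE 0.066, adjusted p = 0.00184). The libraries did not overlap, and gene-level values do not separate spliced from unspliced Xbp1. Atf6 had 2686, 3216 and 3235 normalized counts in BAY-876 cells, against 2645, 2834 and 2719 in vehicle cells (0.15, adjusted p = 0.219). Ern1 had 2605, 2937 and 3529 normalized counts in BAY-876 cells, against 2825, 2593 and 3229.6 in vehicle cells (0.064, adjusted p = 0.749). Eif2ak3 had 474, 495 and 465 normalized counts in BAY-876 cells, against 484, 517 and 436 in vehicle cells (−0.00017, adjusted p = 0.999). The BAY-876 and vehicle libraries overlapped for each of these 3 sensor genes, with 95% intervals of the log2 fold change of −0.022 to 0.33 for Atf6, −0.19 to 0.32 for Ern1 and −0.21 to 0.20 for Eif2ak3.

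Among the lumenal Hsp70 and Hsp90 group 2 of 7 rose. Hspa5 had 21494, 21159 and 21882 normalized counts in BAY-876 cells, against 18639, 18685 and 18065 in vehicle cells (log2 fold change 0.22, SE 0.037, adjusted p = 0.00716). Dnajb9 had 631, 601 and 630.0 normalized counts in BAY-876 cells, against 461, 494 and 470.0 in vehicle cells (log2 fold change 0.39, SE 0.076, adjusted p = 0.0133). Dnajb9 encodes a J-domain partner of BiP, and for both genes the groups were separate. Hsp90b1 had 27669, 28001 and 27857 normalized counts in BAY-876 cells, against 26170.3, 26282 and 25871 in vehicle cells, also without overlap, but the difference of 0.093 was not called (adjusted p = 0.1). Hyou1, Dnajb11, Dnajc3 and Sdf2l1 overlapped between groups, with log2 fold changes from −0.092 to 0.072.

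Of the lectin chaperones and disulphide isomerases 3 of 6 rose. Calr had 10581, 9786 and 9705 normalized counts in BAY-876 cells, against 7911, 7871 and 7581 in vehicle cells (log2 fold change 0.36, SE 0.048, adjusted p = 0.00271). Calr encodes calreticulin, the soluble lectin chaperone, and BAY-876 replicate 1 stood highest. P4hb had 16658, 15847 and 15244 normalized counts in BAY-876 cells, against 13374, 13508 and 13149 in vehicle cells (log2 fold change 0.25, SE 0.044, adjusted p = 0.00812). P4hb encodes protein disulphide isomerase itself. Pdia4 had 4677, 4794 and 4699 normalized counts in BAY-876 cells, against 4199, 4117 and 4308 in vehicle cells (log2 fold change 0.17, SE 0.045, adjusted p = 0.0405). Pdia4, another isomerase, lay close to the threshold and kept its call in 4 of the 12 alternatives run; it was lost, among others, without any 1 of the vehicle libraries or BAY-876 replicate 2 or 3. Canx, Pdia3 and Pdia6 were not called, with log2 fold changes of −0.0048, 0.046 and 0.047.

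Degradation genes held the largest difference, with 3 of 6 tested higher. Herpud1 had 681, 654 and 700.1 normalized counts in BAY-876 cells, against 379, 419 and 436 in vehicle cells (log2 fold change 0.72, SE 0.085, adjusted p = 0.00154). Herpud1 encodes an ER membrane protein that helps assemble the degradation complex, and its highest vehicle library was well below its lowest BAY-876 library. Derl1 had 1555, 1539 and 1449.8 normalized counts in BAY-876 cells, against 1224, 1181 and 1306 in vehicle cells (log2 fold change 0.29, SE 0.066, adjusted p = 0.0211). Edem1 had 1703, 1823 and 1963 normalized counts in BAY-876 cells, against 1504, 1586 and 1569 in vehicle cells (log2 fold change 0.23, SE 0.067, adjusted p = 0.0481). Derl1 is a derlin of the export channel and Edem1 a lectin that sends misfolded glycoproteins to degradation, and neither overlapped between groups. Edem1 kept its call in 4 of the 12 alternatives run, and lost it without any 1 of the vehicle libraries or BAY-876 replicate 2 or 3, and Derl1 kept it in 9. Syvn1, the ubiquitin ligase of the pathway, was separate between groups but not called (0.13, adjusted p = 0.22), and Sel1l and Derl2 overlapped.

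Manf and Sec61b were the remaining calls. Manf had 4431, 3577 and 3852 normalized counts in BAY-876 cells, against 3143, 3270.3 and 3071 in vehicle cells (log2 fold change 0.32, SE 0.077, adjusted p = 0.0274). Manf is secreted and retained in the ER as a stress-induced factor. Sec61b had 1890.3, 1619 and 1579 normalized counts in BAY-876 cells, against 1349, 1269 and 1381 in vehicle cells (log2 fold change 0.34, SE 0.08, adjusted p = 0.024). Sec61b encodes a small subunit of the Sec61 channel, and in both genes BAY-876 replicate 1 was the highest library. The other 2 secreted or calcium-related genes, Creld2 and Wfs1, were not called, nor were Sec61a1, Ssr1, Ssr2, Spcs1 and Ddost, whose log2 fold changes lay between −0.057 and 0.10.

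In the 32 h experiment most of these genes were lower than in control cells under every treatment. BAY-876 alone lowered 21 of 32 and raised 1, Herpud1, against a background of 25.8% of 12780 genes called lower and 11.5% called higher. TNF alone lowered 24 and raised none, where 26.1% of all genes were called lower and 19.4% higher. The combination lowered 29 and raised 1, again Herpud1, where 37.9% of all genes were called lower and 20.9% higher. The median log2 fold change over the 32 genes was −0.21 with BAY-876, −0.41 with TNF and −0.50 with the combination, against −0.089, −0.058 and −0.13 over all genes. These comparisons share the 3 control libraries.

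The balance of calls over all genes depends on how the libraries are scaled. In place of 1473 higher and 3303 lower, BAY-876 against control gave 2238 and 2305 after quantile normalization and 2316 and 2122 after centring each library on its median gene. TNF against control gave 2877 higher and 2742 lower, or 3329 and 2626, in place of 2485 and 3341, and the combination against control 3676 and 3504, or 4149 and 3277, in place of 2671 and 4840. The median of all genes in the combination comparison, −0.13 as deposited, was 0.017 and 0.046 under these scalings. The ER genes stayed mostly lower: 3 higher and 19 lower, or 3 and 14, with BAY-876, 0 and 27, or 0 and 21, with TNF, and 2 and 26, or 2 and 24, with the combination. The added higher calls were Ern1 and Derl1 with BAY-876 and Ern1 with the combination.

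Set against the single agents, the combination lowered 20 of 32 genes and raised none relative to BAY-876, where 24.8% of all genes were called lower and 19.3% higher. Relative to TNF it lowered 15 and raised 5, where 23.6% of all genes were called lower and 10.4% higher. The 5 raised genes were Herpud1, Sel1l, Dnajb9, Ern1 and Derl1. They became 2 without combination replicate 1 or 3, with no filter on low values, or with only the libraries compared, and 3 without combination replicate 2 or TNF replicate 1 or 2. Herpud1 and Ern1 kept their call in all 13 alternatives run, against 7 for Dnajb9, 6 for Derl1 and 5 for Sel1l. Under the same 2 scalings the split was 0 and 22, or 0 and 16, relative to BAY-876, and 6 and 14, or 7 and 9, relative to TNF. All genes gave 2851 higher and 2690 lower, or 3366 and 2445, relative to BAY-876 in place of 2469 and 3175, and 1860 and 2048, or 2154 and 1894, relative to TNF in place of 1323 and 3018. The combination had the lowest group mean for 23 of the 32 genes (71.9%), against 36.6% of all 12780 genes tested, and the control the highest for 27 (84.4%), against 38.6% of all.

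**Figure D2:**
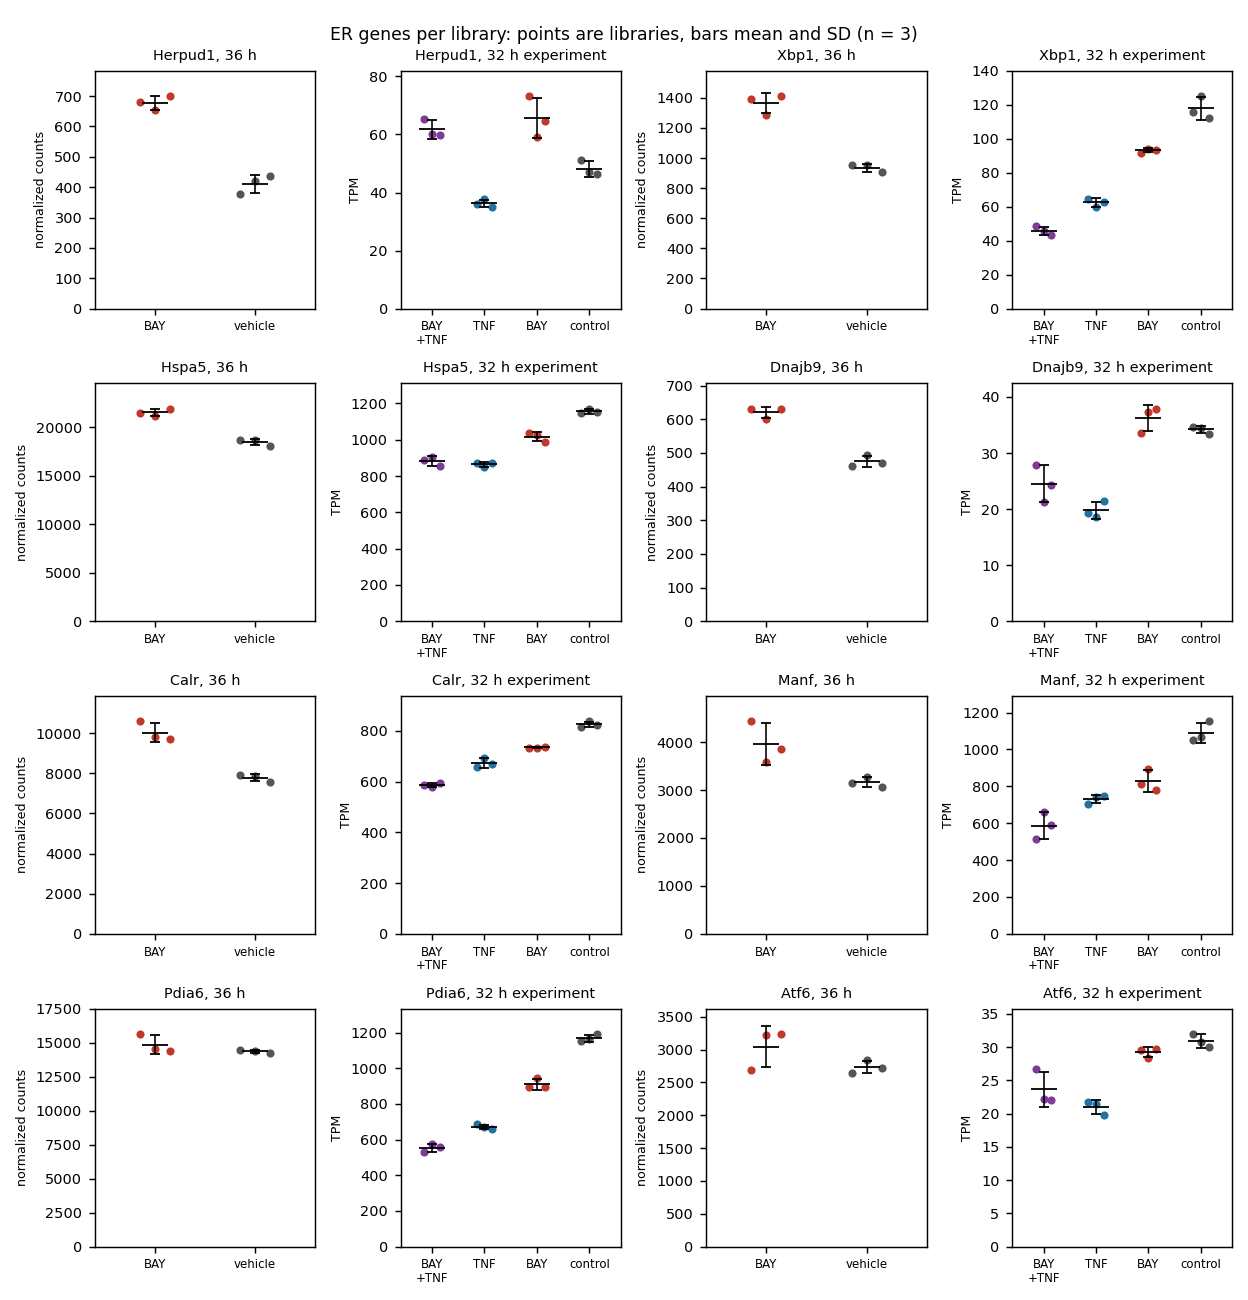
Values of 8 genes in every library: normalized counts at 36 h (BAY-876, vehicle) and TPM at 32 h (BAY-876 with TNF, TNF, BAY-876, control). Points are libraries and bars the mean and SD of 3 libraries; Xbp1, Hspa5, Calr and Manf are higher than vehicle at 36 h and lower than control in the BAY-876 cells at 32 h, while Herpud1 is higher in both.

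Xbp1 had the lowest fold change of the 32 genes in the combination. Xbp1 stood at 48.4, 45.6 and 43.3 TPM in combination cells, 64.5, 59.9 and 63.0 TPM in TNF cells, 91.8, 93.9 and 93.6 TPM in BAY-876 cells and 116, 125 and 112 TPM in control cells. No 2 of the 4 groups overlapped, and control was the highest. Against control the log2 fold change of Xbp1 was −1.35 (adjusted p = 2.41e-09) in combination cells, −0.90 (adjusted p = 1.27e-07) in TNF cells and −0.34 (adjusted p = 0.000534) in BAY-876 cells. The log2 fold change of combination cells was −1.01 (adjusted p = 5.24e-08) against BAY-876 cells and −0.44 (adjusted p = 0.000104) against TNF cells.

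The 3 sensor genes differed in the treatments that changed them. Atf6 stood at 26.6, 22.2 and 22.0 TPM in combination cells, 21.7, 21.4 and 19.8 TPM in TNF cells, 29.6, 28.4 and 29.8 TPM in BAY-876 cells and 32.0, 30.8 and 30.0 TPM in control cells. Atf6 fell with TNF (−0.54, adjusted p = 9.7e-05) and with the combination (−0.38, adjusted p = 0.000834), and had a log2 fold change of −0.077 (adjusted p = 0.435) with BAY-876. Ern1 stood at 81.3, 75.5 and 68.3 TPM in combination cells, 64.7, 59.4 and 62.6 TPM in TNF cells, 74.9, 67.5 and 74.1 TPM in BAY-876 cells and 70.8, 66.0 and 66.4 TPM in control cells. Ern1 was called in none of the 3 comparisons with control, and was higher in combination cells than in TNF cells (0.26, adjusted p = 0.0101). Eif2ak3 stood at 10.5, 10.5 and 9.58 TPM in combination cells, 11.0, 11.5 and 12.4 TPM in TNF cells, 10.2, 9.35 and 12 TPM in BAY-876 cells and 15.6, 16.3 and 15.4 TPM in control cells. Eif2ak3 fell with BAY-876 (−0.55, adjusted p = 0.000617), with TNF (−0.41, adjusted p = 0.00272) and with the combination (−0.58, adjusted p = 0.00014), all treated libraries lying below all control libraries.

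BiP was among the most abundant of these transcripts in every 32 h group. Hspa5 stood at 890.1, 906 and 853 TPM in combination cells, 871, 849.6 and 874 TPM in TNF cells, 1035, 1026 and 988 TPM in BAY-876 cells and 1145, 1170.5 and 1154 TPM in control cells. Hspa5 fell with BAY-876 (−0.19, adjusted p = 0.000515), with TNF (−0.42, adjusted p = 4.93e-07) and with the combination (−0.39, adjusted p = 4.56e-07), and combination and TNF libraries overlapped. It was the only member called in the interaction of BAY-876 and TNF, where 0.736% of all genes were called higher and 0.822% lower: the interaction was 0.22 (SE 0.042, adjusted p = 0.0251), the difference between the BAY-876 response with TNF, 0.03, and without it, −0.19. The call was lost with quantile normalization, with no filter on low values and with any of the 3 control libraries, BAY-876 replicate 2 or 3, TNF replicate 2 or 3 or combination replicate 2 left out. Interaction estimates were larger but more variable for Sel1l (0.57, adjusted p = 0.335), Wfs1 (0.41, adjusted p = 0.262), Eif2ak3 (0.37, adjusted p = 0.186) and Herpud1 (0.32, adjusted p = 0.181), none called.

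Of the other lumenal chaperones, Hsp90b1 fell with each treatment, Sdf2l1 with BAY-876 and the combination and Dnajb9 with TNF and the combination. Hsp90b1 stood at 550.3, 542 and 554 TPM in combination cells, 712, 695 and 690.1 TPM in TNF cells, 784, 811 and 794 TPM in BAY-876 cells and 999, 1006 and 1016 TPM in control cells. Hsp90b1, the ER form of Hsp90, was separate in all 4 groups and fell with BAY-876 (−0.34, adjusted p = 3e-06), TNF (−0.53, adjusted p = 2.16e-08) and the combination (−0.87, adjusted p = 2.13e-10). Sdf2l1 stood at 50.5, 60.1 and 64.0 TPM in combination cells, 91.5, 89.1 and 99.2 TPM in TNF cells, 54.8, 65.1 and 57.3 TPM in BAY-876 cells and 105, 106 and 113 TPM in control cells. Sdf2l1, a partner of the J-domain protein Dnajb11, fell with BAY-876 (−0.86, adjusted p = 2.47e-05) and with the combination (−0.89, adjusted p = 3.74e-06), which overlapped each other, while with TNF it was not called (−0.21, adjusted p = 0.0663). Dnajb9 stood at 27.9, 21.3 and 24.3 TPM in combination cells, 19.3, 18.6 and 21.4 TPM in TNF cells, 33.6, 37.2 and 37.9 TPM in BAY-876 cells and 34.6, 34.5 and 33.4 TPM in control cells. Dnajb9 fell with TNF (−0.76, adjusted p = 3.13e-05), had 0.08 (adjusted p = 0.515) with BAY-876, and was higher in combination cells than in TNF cells (0.29, adjusted p = 0.0263) although these groups overlapped. Dnajc3 fell to 6.48 to 6.94 TPM in combination cells, against 12.1 to 13.7 TPM in control cells (−0.86, adjusted p = 8.6e-07), and Hyou1 (−0.32, adjusted p = 0.000117) and Dnajb11 (−0.15, adjusted p = 0.0143) fell too; Dnajb11 lost its call with either scaling.

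All 6 lectin chaperones and isomerases fell with TNF and with the combination, and 5 of 6 with BAY-876, Canx being the exception. Canx averaged 335 ± 11.3 TPM in combination cells, 349 ± 25.5 TPM in TNF cells, 370.3 ± 7.80 TPM in BAY-876 cells and 398 ± 8.98 TPM in control cells (SD, n = 3 each), with log2 fold changes of −0.10 (adjusted p = 0.116) with BAY-876, −0.19 (adjusted p = 0.00722) with TNF and −0.25 (adjusted p = 0.000854) with the combination. Canx encodes calnexin, the membrane-bound lectin chaperone, and its TNF and combination calls were lost with median centring. Pdia6 stood at 532, 575 and 556 TPM in combination cells, 685, 668 and 659 TPM in TNF cells, 894, 947 and 893 TPM in BAY-876 cells and 1152, 1162 and 1192 TPM in control cells. Pdia6 fell with TNF (−0.80, adjusted p = 1.23e-08), with BAY-876 (−0.36, adjusted p = 2.21e-05) and most with the combination (−1.08, adjusted p = 5.65e-10), with no overlap between any groups. Pdia4 stood at 151, 146 and 145 TPM in combination cells, 155, 158 and 152 TPM in TNF cells, 250.4, 248 and 245 TPM in BAY-876 cells and 277, 283 and 280.0 TPM in control cells. Pdia4 fell with TNF (−0.85, adjusted p = 2.3e-09) and with BAY-876 (−0.18, adjusted p = 0.000977), and its combination and TNF libraries were close (−0.073, adjusted p = 0.0876). Calr stood at 585, 579 and 596 TPM in combination cells, 657, 693 and 669.5 TPM in TNF cells, 734, 733 and 738 TPM in BAY-876 cells and 814, 838 and 825 TPM in control cells. P4hb stood at 379, 368 and 365 TPM in combination cells, 382, 403 and 418 TPM in TNF cells, 547, 542 and 534 TPM in BAY-876 cells and 612, 608 and 570.3 TPM in control cells. Calr fell with BAY-876 (−0.17, adjusted p = 0.000583), TNF (−0.29, adjusted p = 4.22e-06) and the combination (−0.49, adjusted p = 3.04e-08), and P4hb with BAY-876 (−0.14, adjusted p = 0.0133), TNF (−0.57, adjusted p = 3.24e-07) and the combination (−0.69, adjusted p = 3.55e-08); with median centring the BAY-876 calls of both were lost, at −0.075 and −0.049. Pdia3 fell to 230.1 to 248 TPM in combination cells, against 398 to 404 TPM in control cells (−0.73, adjusted p = 6.19e-09).

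Of the secreted and calcium-related genes 2, 2 and 3 of 3 fell with BAY-876, TNF and the combination. Manf stood at 515, 659 and 589 TPM in combination cells, 703, 743 and 747 TPM in TNF cells, 814, 893 and 781 TPM in BAY-876 cells and 1053, 1067 and 1152 TPM in control cells. Manf fell with BAY-876 (−0.40, adjusted p = 0.00213), with TNF (−0.58, adjusted p = 9.71e-05) and with the combination (−0.90, adjusted p = 1.44e-06), control being the highest group without overlap. Creld2 fell with BAY-876 (−0.40, adjusted p = 0.000413) and the combination (−0.60, adjusted p = 5.41e-06) and was not called with TNF (−0.13, adjusted p = 0.101). Wfs1, at 2.31 to 2.86 TPM in combination cells, 2.14 to 2.53 TPM in TNF cells, 2.94 to 3.66 TPM in BAY-876 cells and 3.78 to 4.55 TPM in control cells, was called lower with TNF (−0.66, adjusted p = 0.000651) and with the combination (−0.51, adjusted p = 0.00257).

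Herpud1 was the only member called higher than control, with BAY-876 and with the combination. Herpud1 stood at 65.4, 60.0 and 59.7 TPM in combination cells, 36.2, 37.6 and 34.9 TPM in TNF cells, 73.2, 59.3 and 64.6 TPM in BAY-876 cells and 51.2, 47.0 and 46.3 TPM in control cells. It rose with BAY-876 (0.44, adjusted p = 0.00086) and with the combination (0.35, adjusted p = 0.00157) and fell with TNF (−0.40, adjusted p = 0.000973), with each treated group separate from control. Combination cells were above TNF cells by 0.75 (adjusted p = 2.55e-05), and overlapped BAY-876 cells (−0.084, adjusted p = 0.386). Derl1 stood at 37.6, 35.1 and 35.6 TPM in combination cells, 28.0, 33.1 and 33.3 TPM in TNF cells, 45.6, 44.7 and 47.5 TPM in BAY-876 cells and 41.2, 42.7 and 41.0 TPM in control cells. Derl1 fell with TNF (−0.40, adjusted p = 0.000445), was at 0.14 (adjusted p = 0.12) with BAY-876, and stood higher in combination than in TNF cells (0.19, adjusted p = 0.0392). Edem1 stood at 22.0, 22.8 and 18.7 TPM in combination cells, 22.4, 23.7 and 21.9 TPM in TNF cells, 31.2, 30.7 and 28.9 TPM in BAY-876 cells and 32.3, 35.7 and 31.9 TPM in control cells. Edem1 fell with TNF (−0.53, adjusted p = 0.000151) and the combination (−0.63, adjusted p = 2.24e-05) and was not called with BAY-876 (−0.13, adjusted p = 0.198). Syvn1 fell in all 3 treated groups (−0.38, −0.22 and −0.38 with BAY-876, TNF and the combination), Derl2 fell with BAY-876 (−0.29, adjusted p = 0.0221) and the combination (−0.49, adjusted p = 0.000453), and Sel1l was called in none of the 3. Sel1l stood at 22.2, 27.2 and 23.4 TPM in combination cells, 22.2, 14 and 14.6 TPM in TNF cells, 19.3, 25.5 and 21.1 TPM in BAY-876 cells and 23.6, 17.8 and 27.5 TPM in control cells, and combination cells were higher than TNF cells (0.52, adjusted p = 0.0473), the closest libraries of these groups being nearly equal.

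Of the protein entry and glycosylation genes, 5, 4 and 6 of 6 were lower with BAY-876, TNF and the combination. With median centring these were 2, 3 and 4, and with quantile normalization 5, 6 and 6. Sec61b stood at 341, 345 and 352 TPM in combination cells, 386, 399 and 387 TPM in TNF cells, 477, 471 and 501 TPM in BAY-876 cells and 509.9, 499 and 544 TPM in control cells. Sec61b fell with TNF (−0.40, adjusted p = 4.49e-06) and the combination (−0.58, adjusted p = 1.14e-07) and was not called with BAY-876 (−0.10, adjusted p = 0.0563). Ddost, of the oligosaccharyltransferase, had −0.21, −0.46 and −0.63 and Sec61a1, the channel itself, −0.30, −0.18 and −0.50 in the same order, all called. Ssr1 and Spcs1 were called with BAY-876 (−0.25 and −0.29) and the combination (−0.21 and −0.40) but not with TNF, and Ssr2 in all 3 (−0.22, −0.24 and −0.29).

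The BAY-876 response had opposite signs in the 2 culture experiments for many of these genes. Of the 11 genes raised at 36 h, 6 were lowered by BAY-876 in the 32 h experiment (Xbp1, Hspa5, Calr, Pdia4, P4hb and Manf), 1 was raised (Herpud1) and 4 were not called (Dnajb9, Edem1, Derl1 and Sec61b). Over the 32 genes 13 had the same sign in both (40.6%), against 56.7% of the 12086 genes tested in both. The signs were up at 36 h and down at 32 h for 19, down in both for 9, up in both for 4 and down then up for none. Among genes called in both, 6 of 7 ER genes were opposite, where 264 of 932 over all genes were opposite and 668 the same. The 95% intervals lay apart for 17 of 32 (53.1%), against 2536 of the 12086 genes (21.0%). These counts use the values as deposited, where the median log2 fold change of all genes with BAY-876 at 32 h was −0.089. The 6 opposite calls became 3 with median centring (Xbp1, Hspa5 and Manf) and 3 without vehicle replicate 3 (Xbp1, Calr and P4hb), and 4 without vehicle replicate 1 or 2 or BAY-876 replicate 3 of the 36 h table (Xbp1, Hspa5, Calr and P4hb). In the authors' deposited comparison of BAY-876 with control at 32 h, Xbp1, Hspa5 and Manf were lower at an adjusted p under 0.05. Calr, Pdia4 and P4hb were not called there, with log2 fold changes of −0.067, −0.075 and −0.040. Herpud1 and Derl1 were higher there (0.55 and 0.24). Atf6, Dnajb11, Sec61b and Sel1l, negative in the fit used here, had 0.021, 0.049, 0.00075 and 0.034 there. That is the sign at 36 h for Atf6, Dnajb11 and Sec61b, and the opposite sign for Sel1l. In the fits used here Xbp1 had 0.54 (0.39 to 0.69) at 36 h and −0.34 (−0.45 to −0.22) at 32 h. Manf had 0.32 (0.14 to 0.49) at 36 h and −0.40 (−0.57 to −0.22) at 32 h, and Herpud1 0.72 (0.53 to 0.91) and 0.44 (0.27 to 0.60). The tables were normalized separately and share no library, the difference between them was not tested, and the experiments also differ in schedule and untreated cells, which cannot be told apart from the time. With TNF present, the BAY-876 response (combination against TNF) had the sign of the 36 h response in 15 of 32 (46.9%), against 55.6% of all genes, and of 8 genes called in both 3 had the same sign (Herpud1, Dnajb9 and Derl1) and 5 were opposite.

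**Figure D3:**
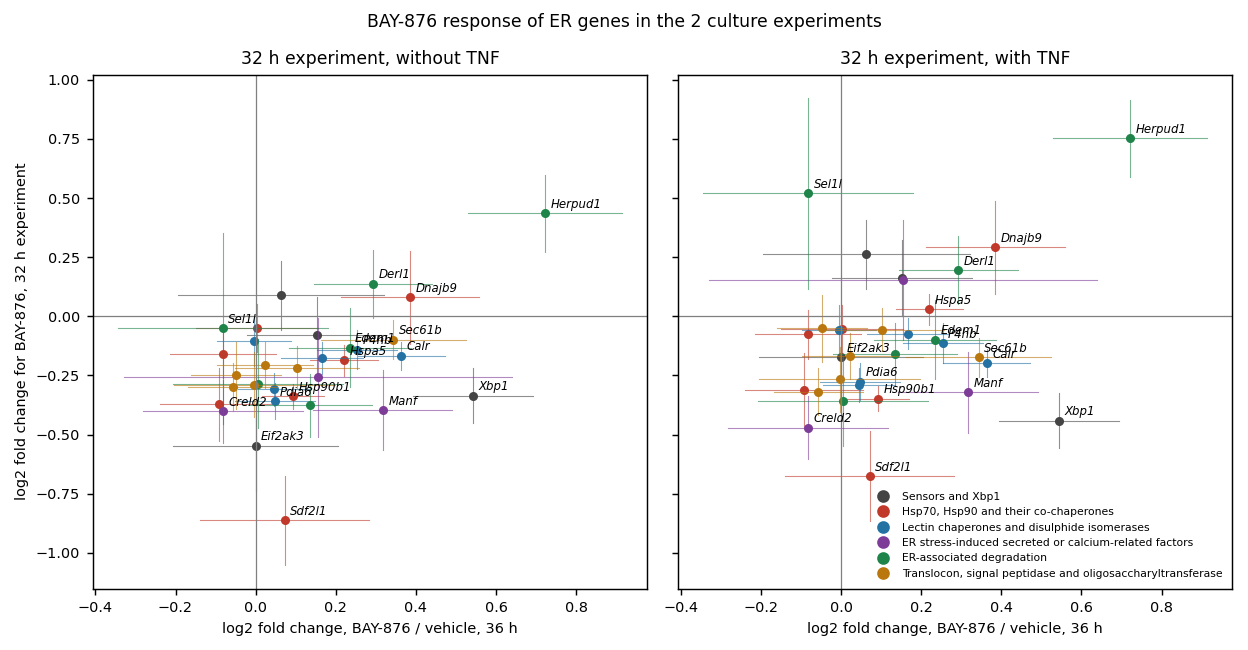
Log2 fold change for BAY-876 at 36 h (horizontal) against that in the 32 h experiment (vertical), without TNF on the left and with TNF on the right, 1 point a gene with 95% intervals, coloured by role. Most points to the right of 0 lie below 0 on the vertical axis; Herpud1 is the highest point in both panels.

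Summed, the 33 genes made up a smaller share of the 32 h transcriptome in every treated group. They summed to 6114, 6286 and 6126 TPM in combination cells, 6877, 6944 and 6959 TPM in TNF cells, 8029, 8169 and 7941 TPM in BAY-876 cells and 9408, 9527 and 9635 TPM in control cells. The 4 groups did not overlap, and the control mean corresponds to 0.952% of all TPM, the combination mean to 0.618%. The 5 most abundant genes held 55.11% of the control sum (Pdia6, Hspa5, Manf, Hsp90b1 and Calr), so the sum mainly follows these. A list of 10 LLC tumour cell markers moved along the same order, at 2537 to 2599.8 TPM in combination, 2928 to 3143 TPM in TNF, 4445 to 4539 TPM in BAY-876 and 4678 to 4711 TPM in control cells; its part in the result was not tested. At 36 h the 33 genes took 0.973% of summed normalized counts in BAY-876 cells and 0.905% in vehicle cells, again without overlap. On day 16 they summed to 4364, 4234, 4226, 4279 and 3912 TPM in OT1 libraries, against 7062, 7053, 7408, 7061 and 7216 TPM in tumour libraries. In such bulk RNA, fewer cells of a type and less RNA per cell cannot be told apart.

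**Figure D4:**
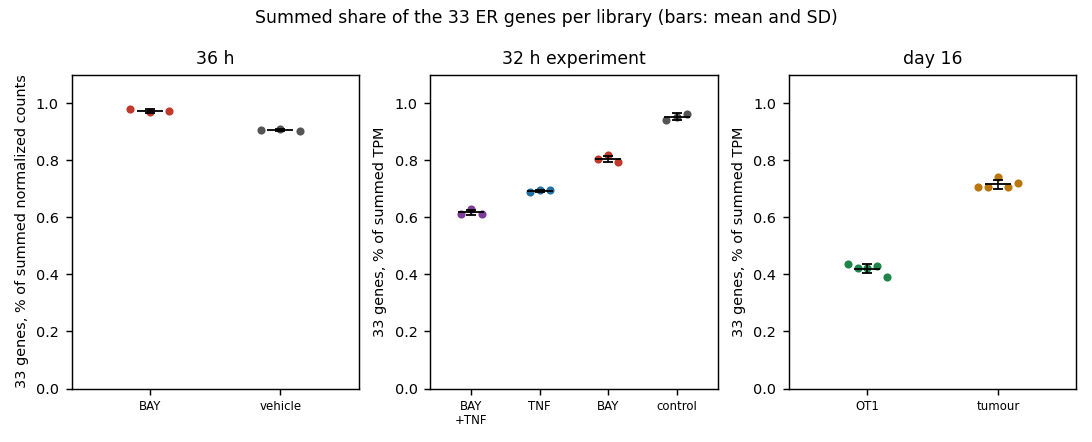
Share of each library's total taken by the 33 genes together, in percent of TPM (32 h, day 16) or of normalized counts (36 h). Points are libraries and bars the mean and SD; the share is 0.973% in BAY-876 cells and 0.905% in vehicle cells at 36 h, lies in the order combination, TNF, BAY-876, control from low to high at 32 h, and is 0.420% in OT1 and 0.716% in tumour libraries.

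Most called genes of the PERK and ATF4 arm, the branch in which PERK, through eIF2α, raises ATF4 and its targets, were higher with BAY-876. Of 22 tested, 14 rose and 2 fell with BAY-876 at 36 h, and 10 rose and 2 fell at 32 h (12 and 1, or 14 and 1, with quantile normalization or median centring). Over all genes 7.34% were called higher and 7.1% lower at 36 h, and 11.5% and 25.8% with BAY-876 at 32 h. Ddit3, the transcription factor CHOP, averaged 202 ± 15.4 TPM in BAY-876 cells and 74.0 ± 1.37 TPM in control cells (SD, n = 3 each; log2 fold change 1.44, adjusted p = 1.65e-07), and Atf4 890.1 ± 45.3 TPM and 556 ± 10.9 TPM in the same cells (0.68, adjusted p = 1.16e-06). With the combination 13 rose and 2 fell, Atf4 averaging 1038 ± 50.9 TPM in combination cells and 556 ± 10.9 TPM in control cells (log2 fold change 0.90, adjusted p = 9.68e-09) and Atf3 24.3 ± 1.71 TPM and 3.48 ± 0.472 TPM (2.50, adjusted p = 1.96e-08). TNF alone raised 6 and lowered 10, a balance that became 8 and 9 with quantile normalization and 10 and 8 with median centring. Combination cells had 15 of the 22 higher and 2 lower than TNF cells, and 8 higher and 3 lower than BAY-876 cells (6 and 4, or 11 and 3, under the 2 scalings). In the interaction 6 were called higher and none lower, with Asns at 0.46 (adjusted p = 0.00648) and Chac1 at 0.62 (adjusted p = 0.0144). Over all genes 19.4% were called higher and 26.1% lower with TNF, 20.9% and 37.9% with the combination, and 0.736% and 0.822% in the interaction. For combination cells these shares were 10.4% and 23.6% against TNF cells, and 19.3% and 24.8% against BAY-876 cells. The list was chosen with earlier results of these data known, so its counts are a description. The list and the ER chaperones were not tested against each other.

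Other ER lists were counted in the same way. Among all genes tested, 7.34% were called higher and 7.1% lower at 36 h. At 32 h these shares were 11.5% and 25.8% with BAY-876, 19.4% and 26.1% with TNF, and 20.9% and 37.9% with the combination. The list counts were not tested against these shares. Of 26 oxidative and other lumenal folding factors, 2 rose and 1 fell at 36 h; at 32 h 4 rose and 11 fell with BAY-876, 0 and 19 with TNF and 0 and 20 with the combination. With median centring these were 7 and 10, 0 and 14, and 3 and 13. Ero1l, the oxidase that recharges disulphide isomerase, averaged 5934 ± 965 normalized counts in BAY-876 cells and 3680.3 ± 108 in vehicle cells at 36 h (log2 fold change 0.68, adjusted p = 0.00493). Prdx4, an ER peroxidase, averaged 139.8 ± 1.43 TPM in combination cells and 246 ± 3.60 TPM in control cells (−0.81, adjusted p = 1.69e-09). Of 22 genes of COPII vesicles and ER retrieval, 1 rose at 36 h (Arfgap3, 0.86, adjusted p = 0.00397), and 11, 14 and 18 fell with BAY-876, TNF and the combination, with none higher (2 higher and 11 lower with TNF under median centring). Kdelr3, a receptor that returns chaperones to the ER, averaged 22.8 ± 1.16 TPM in combination cells and 67.2 ± 2.33 TPM in control cells (−1.52, adjusted p = 1.28e-09). Of 29 other translocon, signal peptidase and oligosaccharyltransferase genes 2 rose and 3 fell at 36 h, and 3 rose and 16 fell with BAY-876, 0 and 15 with TNF and 3 and 20 with the combination; median centring gave 2 and 4 at 36 h and 3 and 12, 2 and 10, and 5 and 15, and quantile normalization 4 and 1 at 36 h. Of 10 lectin cycle genes 0 rose and 1 fell at 36 h, and 1 and 5, 2 and 4, and 2 and 5 did so in those 3 comparisons, the last 3 and 4 with median centring. Of 21 other degradation genes 1 rose and 1 fell at 36 h; 0 rose and 8 fell with BAY-876, a balance of 3 and 2 under either scaling, 3 and 10 with TNF and 4 and 11 with the combination, which was 8 and 6 with median centring. Of 14 other sensor, processing and feedback genes 5 rose and 1 fell at 36 h, and 2 and 3, 5 and 4, and 2 and 6 did so at 32 h; median centring gave 3 and 2 at 36 h and 4 and 5 with the combination.

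Heat shock genes outside the ER were called higher more often than lower at 32 h. Of 11 tested, a list that also holds the mitochondrial chaperones Hspd1 and Hspe1, none rose and 3 fell at 36 h, while 6 rose and 1 fell with BAY-876, 7 and 1 with TNF and 9 and 2 with the combination at 32 h. Over all genes 7.34% were called higher and 7.1% lower at 36 h. At 32 h the shares were 11.5% higher and 25.8% lower with BAY-876, 19.4% and 26.1% with TNF, and 20.9% and 37.9% with the combination. Hspa8, the constitutive cytosolic Hsp70, averaged 47983 ± 549 normalized counts in BAY-876 cells and 61774 ± 1089.8 in vehicle cells at 36 h (log2 fold change −0.36, adjusted p = 0.00053). Hspd1 averaged 1298 ± 9.40 TPM in TNF cells and 828 ± 14.3 TPM in control cells (0.65, adjusted p = 1.42e-08), and Hsp90aa1, the cytosolic counterpart of Hsp90b1, 789 ± 17.1 TPM in combination cells and 542 ± 23.6 TPM in control cells (0.54, adjusted p = 4.28e-07). With BAY-876 at 32 h the counts were 4 and 1 with quantile normalization and 8 and 0 with median centring.

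The authors' deposited tables of their own 32 h comparisons list 32 of these genes. The authors' deposited table has 3 higher and 14 lower at its adjusted p under 0.05 for BAY-876 against control, where 16.3% of all its genes are higher and 15.3% lower. The authors' deposited table for TNF against control has 0 and 21, where 19.7% of all its genes are higher and 17.4% lower. For the combination, the authors' deposited tables have 0 higher and 16 lower against BAY-876, where 19.1% of all their genes are higher and 17.3% lower, and 7 and 8 against TNF, where 14.4% are higher and 13.4% lower. The sign in the authors' deposited tables was that of the fit used here for 28, 32, 29 and 26 of the 32 genes in these 4 comparisons.

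The calls were also counted by promoter element. Of the 10 tested genes with either element, 3 rose and none fell at 36 h; of the 16 with a promoter window and neither element, 6 rose and none fell. With BAY-876 at 32 h the counts were 1 higher and 7 lower of 10 with an element, and 0 and 10 of 16 without. With TNF they were 0 and 8 of 10, and 0 and 10 of 16, and with the combination 1 and 9 of 10, and 0 and 14 of 16. No test was made of these counts, and the 6 genes with no window are in neither group.

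On day 16 OT1 libraries had 18 of the 32 genes lower and 8 higher than tumour libraries, where 44.4% of all 13511 genes were called lower and 30.1% higher. The median log2 fold change was −0.48 for the 32 genes and −0.21 for all genes, and quantile normalization or median centring gave 9 higher and 18 lower. By role, all 6 lectin chaperones and isomerases were lower, and 4 of 6 degradation genes were higher with 1 lower. The groups are different cell types. T cell markers (12 of 12 higher) summed to 3698 to 5724 TPM in OT1 and 10.8 to 20.9 TPM in tumour libraries, and tumour markers (9 of 9 tested lower) to 1197 to 1674 TPM in OT1 and 5289.9 to 5846 TPM in tumour libraries. Myeloid markers (18 of 18 higher) summed to 1706, 8219, 3761, 5252 and 23302 TPM in OT1 libraries, against 115 to 257 TPM in tumour libraries, and their part in the result was not tested. Without OT1 libraries 2, 4 and 5, which had the highest myeloid sums, 7 genes were higher and 18 lower. Plasma and B cell markers (3 higher and 1 lower of 4 tested) summed to 77.5 to 130.2 TPM in OT1 and 320.0 to 471 TPM in tumour libraries, where they came mostly from Sdc1, which epithelial cells also express, and their part in the result was not tested. Of their defining genes, Jchain and Ms4a1 were at most 0.0713 TPM and 0.0691 TPM in OT1 libraries and at 0 in tumour libraries.

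Pdia6 had the lowest fold change of the members in OT1 libraries. Pdia6 had 206, 173, 183, 211 and 163 TPM in OT1 libraries, against 849, 802, 853, 817 and 816 TPM in tumour libraries (log2 fold change −2.14, SE 0.083, adjusted p = 7.32e-10). The groups lay far apart. Hspa5 had 468, 498, 511, 439.9 and 439.7 TPM in OT1 libraries, against 916, 843, 986, 929.6 and 791 TPM in tumour libraries (log2 fold change −0.92, SE 0.083, adjusted p = 1.1e-06). Manf had 356, 328, 337, 350.3 and 267 TPM in OT1 libraries, against 766, 713, 756, 743 and 719 TPM in tumour libraries (log2 fold change −1.18, SE 0.086, adjusted p = 1.97e-07). Neither BiP nor Manf overlapped between OT1 and tumour libraries. Calr had 529, 524, 536, 564 and 539 TPM in OT1 libraries, against 575, 686, 686, 638 and 753 TPM in tumour libraries (log2 fold change −0.30, SE 0.08, adjusted p = 0.00475). P4hb had 224, 219, 215, 237 and 248 TPM in OT1 libraries, against 352, 429, 444, 399 and 449 TPM in tumour libraries (log2 fold change −0.85, SE 0.083, adjusted p = 2.04e-06). Pdia4 had 103, 94.3, 91.6, 94.1 and 83.3 TPM in OT1 libraries, against 177, 179, 182, 184 and 179.5 TPM in tumour libraries (log2 fold change −0.95, SE 0.069, adjusted p = 1.85e-07). These 3 were also separate, Calr least so, its highest OT1 library being close to its lowest tumour library.

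Hsp90b1 (−1.36, adjusted p = 1.43e-07), Canx (−1.02, adjusted p = 2.12e-07), Hyou1 (−0.94, adjusted p = 8.64e-06) and Pdia3 (−0.51, adjusted p = 5.34e-05) were lower as well, as were Ssr2 (−1.18, adjusted p = 2.38e-06), Ddost (−1.08, adjusted p = 1.96e-07) and Ssr1 (−0.99, adjusted p = 1.08e-06) of the entry machinery. Dnajb9 had 13.5, 16.5, 13.8, 14.2 and 18.8 TPM in OT1 libraries, against 33.8, 29.4, 30.1, 32.3 and 29.3 TPM in tumour libraries (log2 fold change −0.98, SE 0.11, adjusted p = 5.59e-06). The other co-chaperones Dnajb11 (0.54, adjusted p = 0.000154) and Dnajc3 (0.54, adjusted p = 9.36e-05) were higher in OT1 libraries without overlap. Sec61b was not called (−0.16, adjusted p = 0.165): it had 308, 300.3, 316, 291 and 231 TPM in OT1 libraries, against 349, 318, 308, 287 and 347 TPM in tumour libraries, which overlapped. Sdf2l1, Creld2, Sel1l, Sec61a1 and Spcs1 were not called either, and Syvn1 (−0.47, adjusted p = 0.000974) and Wfs1 (−0.49, adjusted p = 0.0241) were lower. The call of Wfs1 was kept in 9 of the 16 alternatives run, and was lost without OT1 replicate 2, 3 or 4 and without tumour replicate 2, 3 or 5.

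Edem1 was the most raised member in OT1 libraries. Edem1 had 85.7, 90.6, 79.5, 82.4 and 92.6 TPM in OT1 libraries, against 26.5, 32.7, 28.6, 30.3 and 30.5 TPM in tumour libraries (log2 fold change 1.51, SE 0.08, adjusted p = 1.43e-08). All OT1 libraries stood above all tumour libraries. Herpud1 had 61.8, 58.7, 57.1, 45.0 and 68.3 TPM in OT1 libraries, against 49.9, 37.6, 44.2, 33.7 and 23.8 TPM in tumour libraries (log2 fold change 0.64, SE 0.18, adjusted p = 0.00751), with 1 OT1 library inside the tumour range. Derl1 had 38.6, 48.4, 42.6, 41.1 and 49.2 TPM in OT1 libraries, against 32.4, 32.0, 32.9, 29.4 and 33.6 TPM in tumour libraries (log2 fold change 0.44, SE 0.088, adjusted p = 0.000764), without overlap. Derl2, its relative, was also higher (0.52, adjusted p = 0.00157).

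The sensors split on day 16. Ern1 had 9.96, 11.7, 9.24, 9.87 and 16.1 TPM in OT1 libraries, against 27.2, 34.4, 36.1, 27.4 and 35.4 TPM in tumour libraries (log2 fold change −1.43, SE 0.15, adjusted p = 4.45e-06). Atf6 had 16.2, 17.7, 13.6, 14.2 and 18.3 TPM in OT1 libraries, against 26.8, 26.2, 28.4, 22.0 and 25.1 TPM in tumour libraries (log2 fold change −0.65, SE 0.11, adjusted p = 0.000196). Eif2ak3 had 18.4, 21.6, 16.5, 19.2 and 20.3 TPM in OT1 libraries, against 10.2, 10.7, 10.4, 9.04 and 12 TPM in tumour libraries (log2 fold change 0.82, SE 0.11, adjusted p = 2.55e-05). Ern1 and Atf6 were lower and Eif2ak3 higher in OT1 libraries, each without overlap. Xbp1 had 87.6, 117, 113, 98.5 and 133 TPM in OT1 libraries, against 98.1, 83.7, 98.4, 91.8 and 76.1 TPM in tumour libraries (log2 fold change 0.28, SE 0.12, adjusted p = 0.0492). The Xbp1 groups overlapped, and without OT1 libraries 2, 4 and 5 the log2 fold change was 0.16 (adjusted p = 0.342), which was not called. The Xbp1 call was kept in 7 of the 17 alternatives run. It was lost with a replicate block, no filter or a stricter filter. Leaving out OT1 replicate 2, 3 or 5 or tumour replicate 2, 4 or 5 lost it too.

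**Figure D5:**
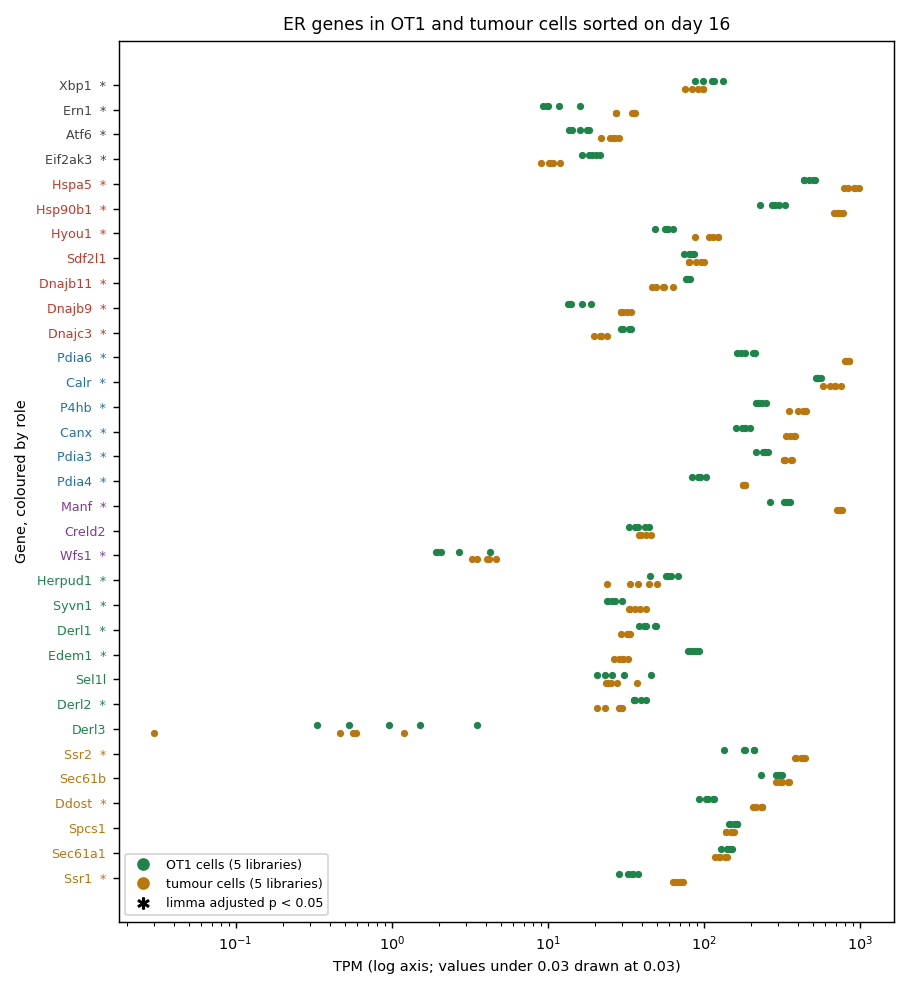
TPM on a log axis of each of the 33 genes on day 16, OT1 libraries above tumour libraries for each gene, 1 point a library; an asterisk marks an adjusted p under 0.05. Pdia6 is lowest relative to tumour, with 163 to 211 TPM in OT1 and 802 to 853 TPM in tumour libraries, and Edem1 is raised, with 79.5 to 92.6 TPM in OT1 and 26.5 to 32.7 TPM in tumour libraries.

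Among the wider ER lists, folding, COPII and retrieval, lectin cycle and translocon genes were called lower more often than higher in OT1 libraries. Over all 13511 genes 44.4% were called lower and 30.1% higher. The lists of other degradation genes and of other sensor genes had more higher than lower calls. Of 26 folding factors 6 were higher and 18 lower, of 22 COPII and retrieval genes 1 and 12, of 10 lectin cycle genes 1 and 9, and of 29 other translocon genes 7 and 22. Pdia5, another isomerase, averaged 2.87 ± 0.732 TPM in OT1 and 34.3 ± 3.70 TPM in tumour libraries (SD, n = 5 each; log2 fold change −3.20, adjusted p = 3.33e-09), and Kdelr3 4.47 ± 2.00 TPM and 48.6 ± 5.74 TPM (−3.26, adjusted p = 1.63e-07). Sec11c, a signal peptidase subunit, was higher, at 117 ± 18.7 TPM in OT1 and 33.1 ± 3.27 TPM in tumour libraries (1.78, adjusted p = 1.05e-07). Of 21 other degradation genes 8 were higher and 6 lower, and of 22 PERK and ATF4 genes 1 was higher and 13 lower, or 3 and 13 under either scaling. Of 15 other sensor, processing and feedback genes 6 were higher and 4 lower, and of 13 heat shock genes 3 and 6.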

How the data were processed

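Messenger RNA was sequenced from 28 mouse libraries. Per the submitters' processing notes the tools were STAR 2.6.1d, Salmon 0.14.1 (36 h) or 0.13.1 (32 h and day 16) and DESeq2 1.34.0 with genome build mm10; their roles, the annotation and the use of strand are not given in the sources used here. What the authors deposited at 36 h is a signal, gene counts divided by size factors, from which whole reads could not be recovered. At 32 h and on day 16 the authors deposited TPM values, which keep no depth. The 32 h table holds 24 further columns that match no labelled sample, and these were left unused. The authors also deposited tables of their own 32 h comparisons with log2 fold changes and p-values; these are quoted only where named.

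Values were tested as log2(value + 1) with limma 3.58.1 (R 4.3.3, trend), each table on its own and all 12 libraries of the 32 h table in 1 fit. Genes needed at least 1 TPM or 10 normalized counts in 3 libraries (5 on day 16). P-values were adjusted by Benjamini-Hochberg over all genes, threshold 0.05. The script was tested on simulated data. Fold changes on this scale understate the change of low genes. Every member is named. From each other list, genes were named only among the 3 with the smallest p called in a comparison. The members and lists were chosen with earlier results of these data known. No label says that a shared number marks a shared culture or mouse, so numbers were not used as pairs. Alternatives were another pseudocount, no filter, a stricter filter, quantile normalization, a replicate block, fits of the compared libraries only and leaving out each library; median centring and leaving out 3 OT1 libraries were added after seeing the data.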

Additional observations from a re-analysis of the deposited data

Results flagged for a closer look

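The response of Hspa5 to BAY-876 differed with and without TNF in the 32 h experiment by the interaction test, at 0.22 on the log2 scale (limma, adjusted p = 0.0251). The call was kept in 8 of the 18 alternatives run, with a limma adjusted p of up to 0.307. It was lost with no filter, with quantile normalization and without any 1 of the control libraries, among others.

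Further genes had every BAY-876 library above every vehicle library at 36 h and every BAY-876 library below every control library at 32 h. The log2 fold changes at 36 h and 32 h were 0.54 and −0.34 for Xbp1, 0.22 and −0.19 for Hspa5, 0.093 and −0.34 for Hsp90b1, 0.36 and −0.17 for Calr and 0.17 and −0.18 for Pdia4. They were 0.25 and −0.14 for P4hb, 0.32 and −0.40 for Manf, 0.23 and −0.13 for Edem1 and 0.13 and −0.38 for Syvn1. Of these, Hsp90b1 and Syvn1 were not called at 36 h and Edem1 was not called at 32 h. The difference between the experiments was not tested. How many of all genes had the same separation in both experiments was not counted, so the pattern cannot be called particular to these genes. By sign alone, 19 of the 32 members were up at 36 h and down at 32 h, against 3378 of the 12086 genes tested in both. The median log2 fold change of all genes with BAY-876 at 32 h was −0.089.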

How the results depend on the processing

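The number of members called kept within 1.5 times its main value in every comparison and alternative run, except at 36 h and in the interaction. At 36 h, 11 called genes became 5 to 13 when 1 library was left out: 5 without vehicle replicate 1, 6 without vehicle replicate 2, 5 without vehicle replicate 3 and 13 without BAY-876 replicate 1. The 1 interaction call became 0 with no filter and 0 with quantile normalization, and 0 to 1 with 1 library left out. Leaving out 1 library gave 20 to 21 calls for BAY-876, 24 to 26 for TNF and 28 to 30 for the combination against control, 17 to 21 and 16 to 19 for the combination against BAY-876 and TNF, and 24 to 26 for OT1 against tumour cells. Of 3576 values of single genes, 3398 stayed on their side of the threshold, and the sign was not compared where neither fit gave a call. Of the rest, 139 lost and 38 gained a call with the same sign, and 1 lost its call with the opposite sign. That was Dnajb11 in the combination against control, with a log2 fold change of 0.025 with median centring (adjusted p = 0.67). The cause was not tested. The labels do not say that same-numbered libraries share a culture or mouse. Deviations of same-numbered libraries correlated between −0.074 and −0.019 at 36 h and between −0.19 and 0.12 at 32 h. On day 16 all 5 same-numbered pairs lay between 0.045 and 0.11 (median 0.058). The 20 differently numbered pairs of day 16 lay between −0.17 and 0.11 (median −0.021). Whether same-numbered day 16 libraries share a mouse was not tested. With the replicate block the counts were 9, 23, 26, 31, 20, 17, 1 and 25, in the order BAY-876 at 36 h, BAY-876, TNF and combination against control, combination against BAY-876 and against TNF, interaction, and OT1. The depth behind TPM is unknown, so differences in low genes such as Wfs1 and Derl3 are limited by it to an extent that cannot be given.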
